A study of Mus musculus with 6 samples.

Results

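The immunity-related GTPases described here are 7 mouse genes, Irgm1, Irgm2, Igtp, Iigp1, Tgtp1, Tgtp2 and Ifi47, taken by symbol from a table of 55023 listed genes. All 7 were found and all 7 passed the filter on low counts, as 18812 genes did in all. RNA from mouse macrophages differentiated out of bone marrow was sequenced after 24 h with vehicle, with LTα1β2, or with LTα1β2 and LCL161 in combination. Each of the 3 groups has 2 libraries. LTα1β2 is the membrane-type lymphotoxin complex, a ligand of the lymphotoxin beta receptor. LCL161 is a drug-like compound that antagonises the ubiquitin ligases cIAP1 and cIAP2. Since every culture given LCL161 also had LTα1β2, its effect by itself cannot be read here. The labels name no strain or genotype and do not say whether replicates came from separate animals or cultures. Their spread, on which every p-value rests, may thus be technical.

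Immunity-related GTPases are large interferon-inducible GTPases that act on membranes in infected cells. The regulators Irgm1, Irgm2 and Igtp (also called Irgm3) sit on the cell's own membranes and keep the effector GTPases inactive there. The effectors Iigp1 (Irga6), Tgtp1 and Tgtp2 (both Irgb6) and Ifi47 (Irgd) gather on the vacuoles of intracellular parasites and bacteria, with help from autophagy conjugation proteins, and damage them. Interferon gamma, acting in part through IRF1, is the best-known inducer of the family in macrophages.

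Of the 7 genes, 6 lie on chromosome 11 in GRCm38 (GENCODE M21 annotation) and Iigp1 lies on another. On chromosome 11, Irgm1 spans 48861968 to 48871683, Tgtp1 48985327 to 48994172, Tgtp2 49057194 to 49064206 and Ifi47 49076587 to 49096974. Igtp spans 58199556 to 58207591 and Irgm2 58199618 to 58222782. The first 4 genes fall within 235.0 kb, and 9.1 Mb separate them from Igtp and Irgm2.

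Promoter sequence is shown because the genes changed together and because the stretches hold matches to 2 motifs of interferon signalling. The windows come from RefSeq (GRCm38.p6) and reach from 250 bases before to 50 bases after each annotated start. The table holds 6 of the 7 genes. On either strand, GAAA, any 2 bases and GAAA, the core of the interferon-stimulated response element (ISRE) bound by IRF family factors, was present in 5 of these 6, against 3.44% of 32851 promoters. A gamma-activated site (GAS), an element of interferon gamma target genes, searched as TTC, any 3 bases and GAA, was present in 4 of the 6, against 8.3% of promoters. The stretches before the start, with both motifs in capitals, are given 5′ to 3′ on the strand of the gene.
Irgm1, chr11:48871421-48871480, minus strand: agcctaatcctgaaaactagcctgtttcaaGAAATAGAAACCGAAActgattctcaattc
Tgtp1, chr11:48992274-48992353, minus strand: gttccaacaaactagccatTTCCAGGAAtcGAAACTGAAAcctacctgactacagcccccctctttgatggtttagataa
Tgtp2, chr11:49064233-49064312, minus strand: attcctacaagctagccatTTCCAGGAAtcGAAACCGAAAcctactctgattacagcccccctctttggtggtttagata
Igtp, chr11:58199492-58199555, plus strand: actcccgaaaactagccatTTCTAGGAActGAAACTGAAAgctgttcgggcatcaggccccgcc
Irgm2, chr11:58214883-58214962, plus strand: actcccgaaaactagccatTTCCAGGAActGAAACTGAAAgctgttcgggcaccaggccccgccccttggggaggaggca

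Tgtp1, Tgtp2, Igtp and Irgm2 carried the GAS match 2 bases before the ISRE match, and the 2 motifs did not overlap. After this arrangement had been seen, it was searched in all promoters, and it was found in 5 of 32851 (0.0152%). These belong to those 4 genes and to Gm12185, a further family gene. Its start lies beside that of Tgtp1, so both windows may hold the same site. The count is of promoters, not of separate sites. Irgm1 held 2 overlapping ISRE matches and no GAS match, and its stretch lies in an exon of a longer non-coding Irgm1 transcript. The Igtp and Irgm2 windows were identical at 244 of 265 aligned bases (92.1%), and those of Tgtp1 and Tgtp2 at 219 of 272 (80.5%). The Ifi47 window held none of the motifs. It belongs to the longest annotated transcript, and the other 4 Ifi47 transcripts in GENCODE start 10113 to 11677 bases further along the gene. A loose NF-kB motif, GGG followed by any 5 bases and CC, was present in 2 of the 6 windows (Igtp and Irgm2) and in 50.79% of all promoters. Of 492 tested genes with an ISRE match, 5 of them members, 153 rose with LTα1β2 (31.1%), where 12.8% of all genes tested rose. Another 50 of the 492 fell with LTα1β2, where 10.6% of all genes tested fell. When LCL161 was added, 93 rose (18.9%) and 86 fell, where 10.6% and 15.1% of all genes tested did. The same comparison was not made for the GAS motif or the NF-kB motif alone. All these matches describe letters in the windows, not bound sites.

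How far reads can be assigned to 1 gene differed among the members. Of the distinct 50-base words in the annotated Tgtp2 transcripts, 85.8% also occur in Tgtp1, and 79.4% of those of Tgtp1 occur in Tgtp2. The split of counts between Tgtp1 and Tgtp2 is therefore uncertain, and exons of Tgtp1 also overlap Gm12185. Igtp shared 11.8% of its words with Irgm2, whose longest transcript starts inside Igtp, and counts of both were not whole in any library. Shared words made up 4.8% for Ifi47, 1.7% for Iigp1 and 0.4% for Irgm1. Ifi47 exons overlap Olfr56 on the same strand and Gm12188 on the other strand.

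Total counts were 14718368 to 19049613 per library. The macrophage markers (8 genes) summed to 27565 to 33996 CPM across the 6 libraries, CPM being counts scaled to the library total after TMM normalisation. Single macrophage markers moved in both directions: 5 rose and 1 fell with LTα1β2, and 3 rose and 3 fell when LCL161 was added. Stromal markers (13 genes) summed to 8177 to 11712 CPM in vehicle, 3195 to 4407 with LTα1β2 and 906 to 952 with LCL161 plus LTα1β2. Of the 12 stromal markers tested, 10 fell in each step. T cell markers summed to 8.16 to 12.8 CPM in vehicle, 9.09 to 11.2 with LTα1β2 and 5.80 to 6.01 when LCL161 was added. Endothelial markers summed to 10.7 to 12.5, 9.13 to 9.20 and 14.9 to 19.0 CPM in the same order, and 2 of 5 rose and 1 fell when LCL161 was added. B cell markers summed to 4.57 to 12.4 CPM, with overlapping groups. NK cell markers summed to 0.995 to 1.19 CPM in vehicle and 8.45 to 9.73 in the treated groups, there mostly Klrk1. Dendritic cell markers summed to 75.1 to 81.5 CPM in vehicle, 246 to 268 with LTα1β2 and 297 to 357 with the antagonist added. Only 2 of the 7 dendritic cell markers rose with LTα1β2, and 5 did not pass. When LCL161 was added, again 2 rose and 5 did not pass. Neutrophil markers summed to 385 to 545 CPM in vehicle, 599 to 758 with LTα1β2 and 307 to 316 when LCL161 was added. Of these 7 markers, 3 rose with LTα1β2 and 4 fell when LCL161 was added. T cell gene Cd8a had no reads in 5 of the 6 libraries. In bulk cultures a change in the mix of cells and a change of RNA per cell cannot be told apart, and the part of these marker shifts in the results below was not tested.

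With LTα1β2, all 7 immunity-related GTPase genes rose (edgeR's quasi-likelihood test, Benjamini-Hochberg adjusted p under 0.05), where 12.8% of all genes tested rose and 23.4% changed in either direction. The rise ran from 18.6-fold for Irgm1 to 813-fold for Iigp1, and the median log2 change of the 7 was 5.75, against -0.039 over all genes tested. For every member both LTα1β2 libraries lay above both vehicle libraries, as they did for 29.7% of all genes tested, while both lay below for 33.7%. Reads of the 7 genes together made up 0.0198% and 0.0141% of the counts in vehicle, 0.793% and 0.800% with LTα1β2, and 0.665% and 0.642% with the antagonist added.

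Among the regulators, Irgm1, which protects host membranes and supports autophagy, had 77.1 and 62.8 CPM in vehicle, 1286 and 1318 with LTα1β2, and 1139 and 1187 with the antagonist added. The vehicle libraries were low and all 4 treated libraries high. The rise with LTα1β2 was 18.6-fold (95% interval 15.0 to 23.1, edgeR adjusted p = 1.35e-06). Irgm2, a regulator found on the Golgi, had 31.1 and 23.8 CPM in vehicle, 576 and 564 with LTα1β2, and 516 and 556 with the antagonist added. It rose 20.7-fold (16.2 to 26.5, edgeR adjusted p = 2.22e-06), and its interval overlaps that of Irgm1. Igtp, a regulator of the endoplasmic reticulum and lipid droplets, had 16.5 and 14.3 CPM in vehicle, 809 and 850 with LTα1β2, and 718 and 761 with the antagonist added. Its rise was 53.8-fold (43.8 to 66.1, edgeR adjusted p = 3.18e-07), the largest of the 3 regulators.

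Among the effectors, Iigp1, which loads onto the Toxoplasma vacuole, was nearly silent in vehicle, with 3.19 and 1.51 CPM (69 and 28 reads). It had 2001 and 1903 CPM with LTα1β2 and 1519 and 1450 with the antagonist added. The vehicle and treated libraries were far apart, and those with the antagonist lay below those with LTα1β2 alone. Its rise with LTα1β2 was 813-fold (508 to 1302, edgeR adjusted p = 1.13e-06), the 4th largest log2 change of the 18812 genes tested.

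Tgtp2 and Tgtp1, near-identical copies of the effector Irgb6, followed. Tgtp1 had 6.76 and 2.995 CPM in vehicle, 1159 and 1210 with LTα1β2, and 1140 and 1194 with the antagonist added. Tgtp2 had 13.9 and 6.83 CPM in vehicle, 1573 and 1614 with LTα1β2, and 1399 and 1482 with the antagonist added. Tgtp1 rose 240-fold (140 to 413, edgeR adjusted p = 6.38e-06) and Tgtp2 152-fold (90.5 to 257, edgeR adjusted p = 7.6e-06), with intervals that overlap. Counted as 1 gene, the pair rose by 7.50 on the log2 scale (edgeR adjusted p = 9.74e-06). Reads of Tgtp2 per read of Tgtp1 were 2.06 and 2.28 in vehicle, 1.36 and 1.33 with LTα1β2, and 1.23 and 1.24 with the antagonist added.

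Ifi47, the effector Irgd, had 24.0 and 16.7 CPM in vehicle, 671 and 687 with LTα1β2, and 713 and 736 with the antagonist added. It rose 33.2-fold (24.7 to 44.6, edgeR adjusted p = 2.97e-06), less than Igtp among the regulators, so the 2 classes overlapped in the size of the rise.

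**Figure D1:**
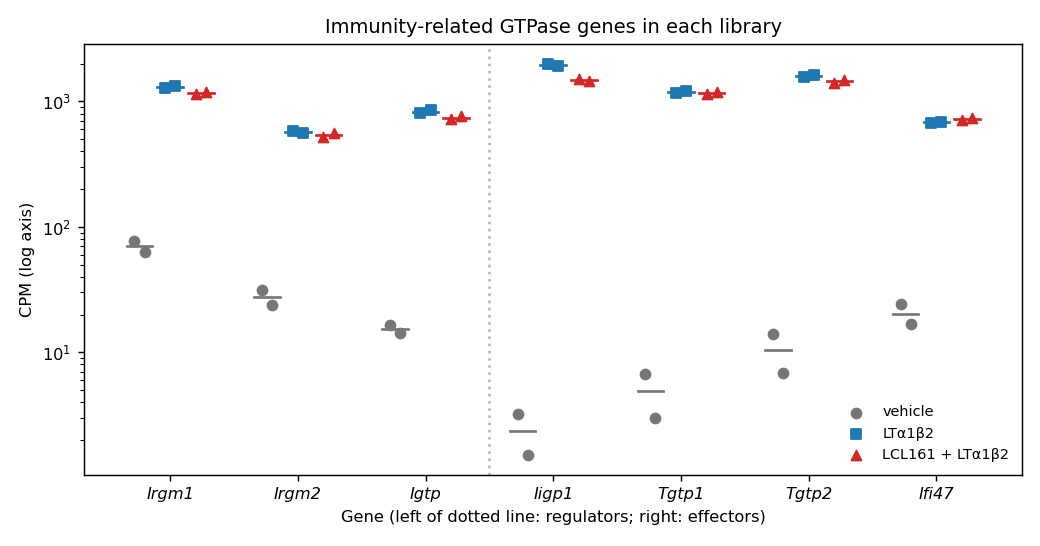
CPM of each immunity-related GTPase gene on a log axis, with 1 point per library, a bar at the mean of each group (n = 2), and regulators left and effectors right of the dotted line. Vehicle points lie between 1.51 and 77.1 CPM, while the 4 treated libraries of each gene lie close together between 516 and 2001 CPM.

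Vehicle replicates differed more than treated ones. Vehicle replicate 1 exceeded vehicle replicate 2 for all 7 genes, by 1.15 times for Igtp, 1.23 for Irgm1, 1.31 for Irgm2, 1.44 for Ifi47, 2.04 for Tgtp2, 2.11 for Iigp1 and 2.26 for Tgtp1. The summed stromal markers were also higher in vehicle replicate 1 (11712 against 8177 CPM); their part in this was not tested. In the treated groups the same ratio ran from 0.929 to 1.05. Without vehicle replicate 1 the log2 change with LTα1β2 was 10.32 for Iigp1 (9.67 with all libraries), 8.63 for Tgtp1 (7.91) and 7.86 for Tgtp2 (7.25), and all 7 genes were still called.

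Per length of exon, the order of the members differed between vehicle and the treated groups. In vehicle, Irgm1 was highest at 12.0 ± 1.75 CPM per kb (SD, n = 2). Next came Ifi47 (8.24 ± 2.10), Igtp (7.63 ± 0.755) and Irgm2 (7.44 ± 1.41), whose ranges overlapped. Tgtp2 (3.53 ± 1.71), Tgtp1 (1.52 ± 0.831) and Iigp1 (0.404 ± 0.204) were lowest. The 3 regulators thus held 66.4% of the summed level per kb in vehicle, against 34.1% with LTα1β2.

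With LTα1β2, Tgtp2 led at 542 ± 9.89 CPM per kb, and Igtp (410 ± 14.4), Tgtp1 (370 ± 11.2), Iigp1 (335 ± 11.9), Ifi47 (275 ± 4.37), Irgm1 (224 ± 3.99) and Irgm2 (153 to 156 in its 2 libraries) followed, with no overlap between neighbours. With LCL161 plus LTα1β2 the order was Tgtp2, Igtp, Tgtp1, Ifi47, Iigp1, Irgm1 and Irgm2. There Igtp (366 ± 14.9) and Tgtp1 (364 ± 11.9) overlapped, and Ifi47 (293 ± 6.43) stood above Iigp1 (255 ± 8.32). These levels depend on the annotated exon length, 2022 bases for Igtp to 5823 for Iigp1, and for Tgtp1 and Tgtp2 on how shared reads were split.

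**Figure D2:**
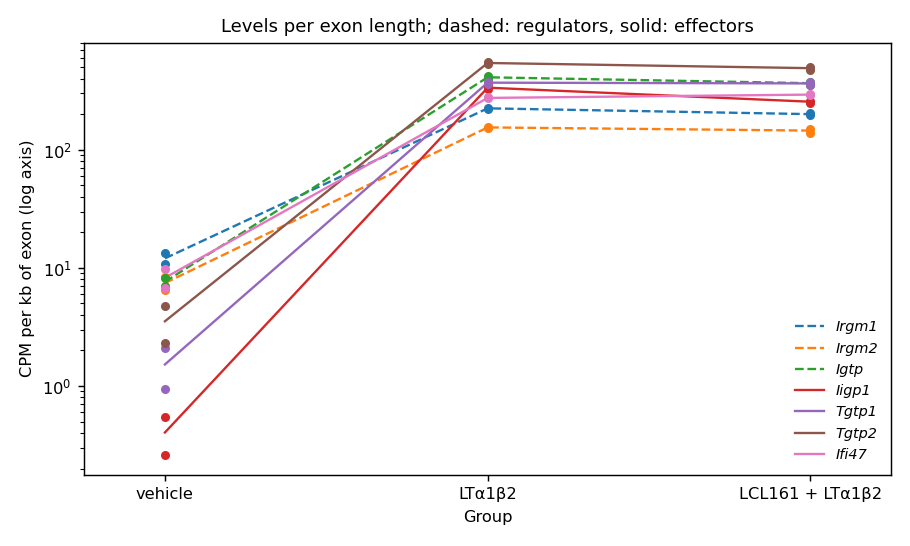
CPM per kb of annotated exon on a log axis in the 3 groups, with 1 point per library, lines through the group means, regulators dashed and effectors solid. Irgm1 is highest in vehicle at 12.0 and Iigp1 lowest at 0.404, and with LTα1β2 Tgtp2 is highest at 542 and Irgm2 lowest at 155.

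When LCL161 was added to LTα1β2, none of the 7 genes passed the test, where 25.7% of all genes tested did (15.1% lower, 10.6% higher). The count at an unadjusted edgeR p under 0.05 was also 0, but it was 3 under total-count scaling, 4 with no filter beyond 1 read, 1 with the 2 groups alone, and 2 without vehicle replicate 1 or without vehicle replicate 2. DESeq2 called 0 of the 7 and limma voom 1, Iigp1. The median log2 difference of the 7 was -0.15, against 0.0045 over all genes tested. Both libraries lay below both LTα1β2 libraries for Irgm1, Irgm2, Igtp, Iigp1 and Tgtp2, as for 34.2% of all genes tested. Tgtp1 overlapped, and both lay above for Ifi47, as for 33.6% of all genes tested.

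Levels with LCL161 plus LTα1β2 relative to LTα1β2 alone were 0.893 (95% interval 0.740 to 1.08) for Irgm1, 0.940 (0.762 to 1.16) for Irgm2 and 0.891 (0.756 to 1.05) for Igtp. They were 0.985 (0.670 to 1.45) for Tgtp1, 0.904 (0.613 to 1.33) for Tgtp2 and 1.07 (0.835 to 1.36) for Ifi47. A difference within these bounds cannot be resolved with 2 libraries a group. The sign for Ifi47 (log2 difference 0.093) flipped to -0.028 under total-count scaling and -0.045 with no filter beyond 1 read, and that for Tgtp1 (-0.02) to 0.025 with a filter of 1 CPM.

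Iigp1 was the member farthest from no difference, at 0.760 (0.559 to 1.04; log2 difference -0.39, SE 0.19, edgeR adjusted p = 0.163). Its call depended on the fit. Adjusted p was 0.0394 with limma voom, 3.32e-05 with no filter beyond 1 read and 0.0193 with the 2 groups alone. It was 0.00956 or 0.01 when vehicle replicate 1 or 2 was left out, libraries that are in neither group. In the other 9 alternatives it did not pass, and over all 14 it ran from 3.32e-05 to 0.499 with a log2 difference of -0.53 to -0.35.

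**Figure D3:**
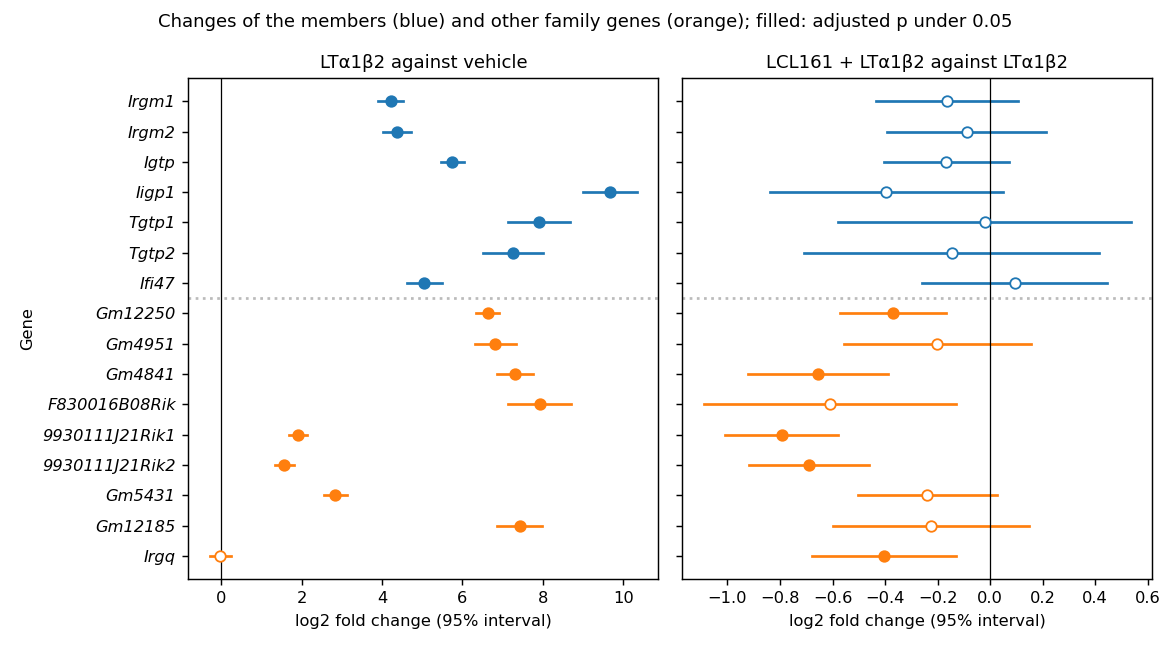
Log2 fold changes with 95% intervals for the 7 members (blue) and 9 other family genes (orange), LTα1β2 against vehicle on the left and LCL161 plus LTα1β2 against LTα1β2 on the right, filled where the adjusted p was under 0.05. All members are filled and between 4.22 and 9.67 on the left, and all are open and between -0.39 and 0.093 on the right.

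Against vehicle, the group that received LCL161 plus LTα1β2 had all 7 genes higher (edgeR), where 18.4% of all genes tested were higher, 21.1% lower and 39.5% either. Both its libraries lay above both vehicle libraries for all 7, as for 38.1% of all genes tested (both below for 35.8%). The folds were 16.6 for Irgm1, 19.5 for Irgm2, 47.9 for Igtp, 618 for Iigp1, 237 for Tgtp1, 138 for Tgtp2 and 35.4 for Ifi47, with edgeR adjusted p from 1.95e-07 to 3.48e-06. This comparison uses the same vehicle libraries as that of LTα1β2 with vehicle, so the 2 sets of folds are not independent. Without vehicle replicate 1 the log2 change was 9.88 for Iigp1 (9.27 with all libraries) and 8.56 for Tgtp1 (7.89).

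A further 11 genes of the family were in the table, and 9 passed the filter on low counts. With LTα1β2, 8 of the 9 rose and none fell. Gm12250, known as Irgb10, an effector that also acts on bacteria (annotated as a processed pseudogene in GENCODE M21), had 2.41 and 2.54 CPM in vehicle, 243 and 246 with LTα1β2, and 191 and 187 with the antagonist added. All 4 treated libraries were high, and the 2 with the antagonist lay below the 2 without it. Gm12250 rose by 6.63 on the log2 scale (SE 0.12, edgeR adjusted p = 2e-07). Gm4951 (log2 change 6.81), Gm4841 (7.30), F830016B08Rik (7.92) and Gm12185 (7.43) also rose, and Gm5431 (2.84), 9930111J21Rik1 (1.91) and 9930111J21Rik2 (1.57) rose less. F830016B08Rik had 16 and 3 vehicle reads, and its change was 9.41 or 7.27 when vehicle replicate 1 or 2 was left out; that of Gm12185 was 8.15 without vehicle replicate 1.

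Irgq, a distant relative, had 28.5 and 26.3 CPM in vehicle, 26.6 and 27.4 with LTα1β2, and 19.6 and 21.3 with the antagonist added. It did not pass with LTα1β2 (log2 change -0.02, edgeR adjusted p = 0.921). The testis gene Irgc1 had 1 to 3 reads in every library, and the pseudogene Gm12187 1.25 to 10.5 reads, and neither was tested.

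With LCL161 added to LTα1β2, 5 of the 9 fell (edgeR), where 15.1% of all genes tested did, and none rose. These were 9930111J21Rik1 (log2 difference -0.79, SE 0.09, edgeR adjusted p = 0.00086), 9930111J21Rik2 (-0.69, SE 0.10, adjusted p = 0.00218), Gm4841 (-0.66), Irgq (-0.40) and Gm12250 (-0.37, SE 0.09, adjusted p = 0.0188). F830016B08Rik (-0.61, adjusted p = 0.0653), Gm5431 (-0.24), Gm12185 (-0.23) and Gm4951 (-0.20) did not pass. Counts of 9930111J21Rik1 and 9930111J21Rik2 were not whole in any library, and exons of 9930111J21Rik1 overlap Psme2b on the same strand. The share of their sequence found in other genes was not counted. The call of Gm12250 was lost without LTα1β2 replicate 2 (adjusted p = 0.0839) and without LCL161 plus LTα1β2 replicate 1 (0.0548). The call of Irgq (adjusted p = 0.0412) was lost in 9 of its 14 alternatives, including without either vehicle replicate (0.0619 each), without either LTα1β2 replicate (0.0724 and 0.164) and without LCL161 plus LTα1β2 replicate 1 (0.123). That of F830016B08Rik was gained in 7 of 14. Whether these genes differ from the 7 members in their response to LCL161 was not tested.

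Of the 5 interferon and receptor genes tested, Ifnar2 rose with LTα1β2 (log2 change 0.63) and 4 did not pass. Ifng had 1 read in each vehicle library, was listed at 0 in both LTα1β2 libraries and had 1 and 4 reads with the antagonist added, and was not tested. Ifnb1 had 1 and 2 reads in vehicle, 3 and 5 with LTα1β2, and 10 and 13 with the antagonist added. The ratio of LTα1β2 to vehicle was 3.11 (95% counting interval 0.747 to 18.2), and that of LCL161 plus LTα1β2 to vehicle 11.5 (3.47 to 59.8). These intervals cover counting error only. In edgeR the log2 change of Ifnb1 was 1.53 with LTα1β2 (adjusted p = 0.231). It was 3.39 with LCL161 plus LTα1β2 against vehicle (adjusted p = 0.00744), a call lost in some fits with 1 library left out. Ifngr1 (log2 change -0.29) and Ifngr2 (-0.03), the receptor chains for interferon gamma, were among those 4. When LCL161 was added, Ifngr2 (0.41) and Ifnar1 (0.72) rose. The call of Ifnar2 was lost without vehicle replicate 1 (edgeR adjusted p = 0.0595). That of Ifngr2 was lost without LTα1β2 replicate 1 (0.0688), LTα1β2 replicate 2 (0.154) or LCL161 plus LTα1β2 replicate 2 (0.101).

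Downstream, 9 of 11 JAK, STAT and IRF genes rose with LTα1β2 and none fell. Irf1, a transcription factor of interferon gamma targets, had 43.9 ± 2.40 CPM in vehicle, 990 ± 62.9 with LTα1β2 and 1121 ± 74.0 when LCL161 was added (SD, n = 2), a log2 change of 4.50 with LTα1β2. Stat2 rose by 2.28. Jak2 rose by 3.54 and Jak1 (0.083) did not pass. The Jak2 libraries with LCL161 plus LTα1β2 were far apart, with 602 and 1764 reads, and its log2 change against vehicle was 2.49 without replicate 2 of that group (3.58 with all libraries). With LCL161 added, Tyk2 (0.49) and Irf9 (0.34) rose and the other 9 did not pass. Tyk2 was not called without LTα1β2 replicate 1 (edgeR adjusted p = 0.0956), LTα1β2 replicate 2 (0.0535) or LCL161 plus LTα1β2 replicate 2 (0.0748), and Irf9 was not called without any one of the 6 libraries (0.0980 to 0.207). The direction for Jak2 (log2 difference 0.043, not called) turned on 1 library. It was called higher without LCL161 plus LTα1β2 replicate 1 (0.62, edgeR adjusted p = 0.0104) and lower without replicate 2 of that group (-1.05, edgeR adjusted p = 0.000962).

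Of 8 inhibitors of interferon signalling, 6 rose with LTα1β2 and none fell, including Socs1, a feedback inhibitor of JAK kinases, from 1.48 ± 0.791 to 162 ± 2.01 CPM (log2 change 6.74, or 7.44 without vehicle replicate 1). Socs3 rose by 2.67 with LTα1β2 and by a further 1.27 with LCL161, Ptpn2 rose by 0.61 with LCL161, and Ptpn11 fell by 0.38. Without LTα1β2 replicate 2 neither Ptpn2 (edgeR adjusted p = 0.0817) nor Ptpn11 (0.1357) was called, and without LCL161 plus LTα1β2 replicate 1 Ptpn11 was not (0.0568). Socs1 had 99.5 ± 37.9 CPM with LCL161 plus LTα1β2, and its log2 difference from LTα1β2 of -0.70 did not pass (edgeR adjusted p = 0.095). In 10 of its 14 alternatives it did not pass either. It passed with limma voom (adjusted p = 0.0407), and in edgeR with total-count scaling (0.0416) or no filter beyond 1 read (5.75e-08). Without replicate 2 of the LCL161 plus LTα1β2 group it also passed, at -1.22.

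Among 14 other interferon-inducible GTPases, all rose with LTα1β2, with a median log2 change of 6.62. Gbp6 (8.41), Gbp4 (9.88) and Gbp10 (8.69), guanylate-binding proteins that work beside the immunity-related GTPases on vacuoles, had the smallest p-values of the list. When LCL161 was added 3 rose and 3 fell and 8 did not pass. Those that fell were Gbp11 (-1.65), Gbp2b (-1.98) and Gbp8 (-0.83), and those that rose were Gbp5, Mx1 and Mx2. Leaving out each library in turn, 1 to 3 of the 14 rose and 3 to 4 fell.

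Autophagy conjugation proteins guide effector loading onto vacuoles. Of 11 such genes, 0 were called with LTα1β2 by edgeR, 2 had an unadjusted p under 0.05, and DESeq2 and limma voom called 1 each. The median log2 change was 0.089, and Atg5 was at 0.32 (edgeR adjusted p = 0.0791). With LCL161 added, Atg5 (0.49) and Gabarapl1 (0.48) rose and 9 did not pass. Without LTα1β2 replicate 2 neither was called (edgeR adjusted p = 0.167 and 0.134). Atg5 was also lost without LTα1β2 replicate 1 (0.0610) or LCL161 plus LTα1β2 replicate 1 (0.0747), and Gabarapl1 without LCL161 plus LTα1β2 replicate 2 (0.0564). Of 12 ubiquitin and adaptor genes, Trim21 (log2 change 2.08) and Lgals8 (0.50) rose with LTα1β2; Lgals8 was not called without vehicle replicate 1 (edgeR adjusted p = 0.0878) or LTα1β2 replicate 1 (0.0518). With LCL161 added 6 of the 12 rose, among them the adaptor Sqstm1 (1.59) and the ubiquitin ligase Traf6 (0.83), and 2 fell (Calcoco1 and Nbr1). Leaving out each library in turn, 2 to 4 of the 12 rose and 0 to 2 fell. Sqstm1 had 813 ± 18.3 CPM in vehicle, 723 ± 62.2 with LTα1β2 and 2181 ± 64.1 with LCL161 plus LTα1β2.

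**Figure D4:**
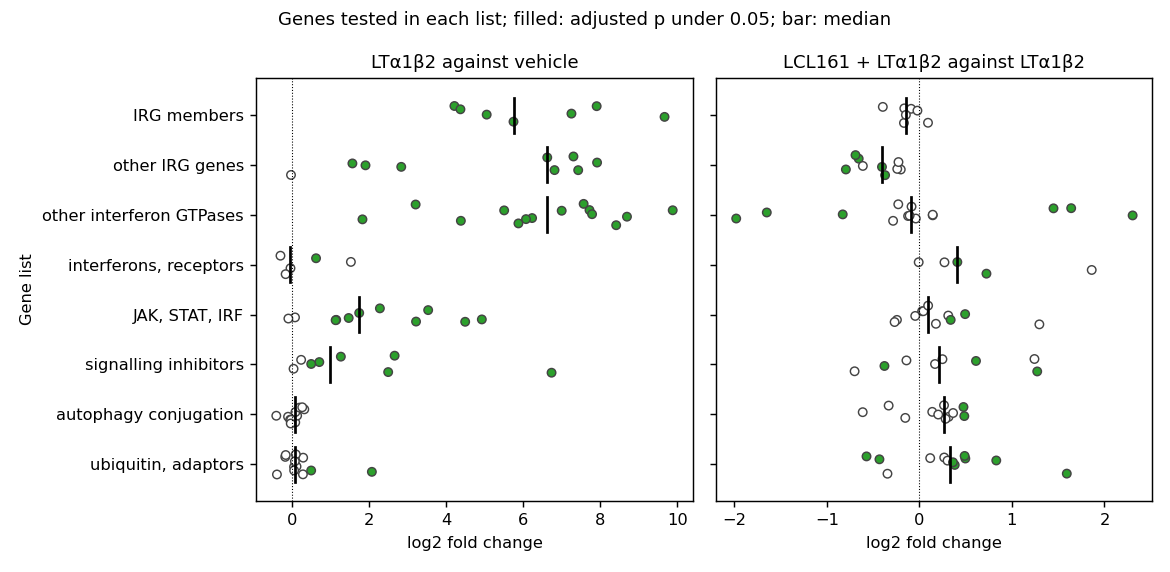
Log2 fold changes of the genes tested in 8 lists, LTα1β2 against vehicle on the left and LCL161 plus LTα1β2 against LTα1β2 on the right, with 1 point per gene, filled where the adjusted p was under 0.05, and a bar at the median. On the left the median of the 7 members is 5.75 and that of the autophagy conjugation genes 0.089, and on the right the members' median is -0.15.

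Outside the family, likeness was measured as the root mean square difference over the 6 libraries between a gene's centred log2 CPM and the median centred profile of the members, which was that of Igtp. Among 10644 eligible genes, Gbp7 (0.167), Fgl2 (0.211), Gbp9 (0.288), Ly6a (0.323), Ciita (0.336), Ccl8 (0.426) and H2-Ab1 (0.469) were among the 8 closest. Their Pearson correlations with that profile were 0.989 to 0.999, over 6 libraries that fall in 3 groups. The members other than Igtp lay at 0.292 (Ifi47) to 1.84 (Iigp1) from it, so several were farther from their own median than these 7 genes. This distance counts the size of a change as well as its pattern. The correlations of those members with the profile were 0.9975 (Tgtp1) to 0.9997 (Irgm1). The guanylate-binding protein gene Gbp7 had 7.54 ± 2.56 CPM in vehicle, 345 ± 16.1 with LTα1β2 and 326 ± 22.8 with LCL161 plus LTα1β2. Ciita, which switches on MHC class II genes, had 1.58 ± 0.0759, 156 ± 3.13 and 115 ± 5.88 CPM in that order. Fgl2 (log2 difference -0.57), Ly6a (-0.59) and Ciita (-0.45) fell when LCL161 was added, and the call of Ciita was lost without LTα1β2 replicate 2 (edgeR adjusted p = 0.0684). Whether they differ from the members in this was not tested. Gbp9 rose by 5.88 on the log2 scale with LTα1β2, or 6.56 without vehicle replicate 1.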

How the data were processed

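The deposited table holds unnormalised expected counts per gene symbol for 6 libraries, and 66.6% of its non-zero values are whole. GRCm38, DESeq2 1.26.0 and STAR 2.7.3a appear in the submitters' processing notes. Not given in the sources used here: counting program, annotation, strand setting and treatment of reads with several matches. Expected counts were rounded and filtered with filterByExpr (minimum 10 reads), which left 18812 genes. Groups were compared in edgeR 4.0.16 (R 4.3.3) with TMM factors, a group-means model over all 6 libraries, glmQLFit and glmQLFTest, two-sided, with Benjamini-Hochberg adjustment over the full table; a gene is called where this is under 0.05. For the 95% intervals, the standard error was obtained by dividing the absolute log2 change by √F. In CPM, 3 reads equal 0.139 to 0.23 across libraries. Only the reported edgeR fit was tested on simulated data, in which every gene was given the same spread. The alternative fits listed below were not tested in this way.

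The members and the 16 gene lists were chosen with earlier results of these data known. Named genes are the members, the other family genes in the table and up to 3 genes per list with the smallest p. They also include 9 pathway genes whatever their result, and the 8 eligible genes with the most similar profile. Some genes that this rule names are not reported here. Genes named only because a count was 5 or fewer (Gbp5, Mx1, Mx2, Nbr1, Calcoco1) and Klrk1 and Cd8a were chosen after their values were seen. Alternatives were relative log expression factors, total-count scaling, DESeq2 1.42.0, limma 3.58.1 voom, a filter of 1 read in total, a filter of 1 CPM in any 2 libraries, only the groups compared, a replicate block, each library left out and Tgtp1 and Tgtp2 added. Shared sequence was counted as 50-base words in GENCODE M21 transcripts.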

Additional observations from a re-analysis of the deposited data

How the results depend on the processing

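Over 300 recomputed member values, 292 kept their direction and side of the threshold, 5 gained a call (all Iigp1, LCL161 plus LTα1β2 against LTα1β2) and 3 reversed. All 7 members were called higher than vehicle in both treated groups under every alternative. With LCL161 added to LTα1β2, 1 member was called lower with limma voom, no filter beyond 1 read or only the groups compared, and 0 to 1 with each library left out. The cause was not tested.

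Total-count scaling called 3729 genes lower with LTα1β2 (1991 in the reported fit), and 2137 higher (3463) and 6561 lower (3968) with LCL161 plus LTα1β2 against vehicle. It moved the median log2 change of all genes from -0.039 to -0.23, 0.0045 to -0.12 and 0.047 to -0.26 in the 3 comparisons, and the share of calls that were higher from 54.8% to 33.0%, 41.2% to 28.0% and 46.6% to 24.6%. With no filter beyond 1 read, 4367 genes fell when LCL161 was added (2843). With each library left out, LTα1β2 raised 1126 to 2723 genes and lowered 735 to 2210. Adding LCL161 raised 736 to 1487 and lowered 1596 to 3316, and against vehicle 1900 to 3629 rose and 2985 to 3988 fell.

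Reversed log2 values, of genes not called in the reported fit, were as follows. Total-count scaling gave -0.028 for Ifi47, -0.091 for Jak1 and -0.10 for Jak2 with LCL161 against LTα1β2. It gave -0.11 for Jak1 and -0.15 for Ptpn11 with LTα1β2, and -0.20 for Jak1 with LCL161 plus LTα1β2 against vehicle. No filter beyond 1 read gave -0.045 for Ifi47, -0.11 for Jak1 and -0.086 for Jak2 with LCL161 added. It gave 0.037 for Gabarapl1, 0.047 for Ifngr2 and 0.061 for Irgq with LTα1β2. The 1 CPM filter gave 0.025 for Tgtp1 and 0.039 for Ifngr1, and limma voom -0.18 for Jak2, with LCL161 added. Only the groups compared gave 0.0015 for Ifngr1 with LCL161 added and 0.013 for Irgq with LTα1β2. With each library left out, log2 values that crossed 0 ran, for LTα1β2 against vehicle, from -0.11 to 0.015 (Gabarapl1), -0.045 to 0.00076 (Ifngr2), -0.081 to 0.078 (Irgq) and -0.022 to 0.18 (Ptpn11). With LCL161 added they ran from -0.15 to 0.043 (Ifngr1), -0.091 to 0.050 (Jak1) and -1.05 to 0.62 (Jak2). Both ends for Jak2 were called, higher without LCL161 plus LTα1β2 replicate 1 and lower without replicate 2.

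The labels give replicate numbers but no pairing. Correlations of same-numbered deviations were 0.138, 0.0941 and 0.157. With the replicate number as a block, 4144, 4629 and 7308 genes were called in the 3 comparisons (4401, 4832 and 7431 without it), members' calls were 7, 0 and 7, and Jak2 with LCL161 added was at -0.085. The block ended the call of Irgq with LCL161 added (edgeR adjusted p = 0.0594). With 2 libraries a group, the precision rests on a spread shared across genes, and vehicle levels of Iigp1 rest on 28 and 69 reads.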
